A study of Mus musculus with 46 samples.

Results

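The genes described here gained H3.3 late in the reprogramming of fibroblasts from mouse embryos (MEFs), and still held it in the induced pluripotent stem cells (iPSCs) that came of it. They were chosen from the H3.3 peaks of 7 libraries on the successful route. A gene was called bound when the midpoint of an H3.3 peak lay between 1 kb before its start and 1 kb after its end. Members had no such peak in D0, D3, D6T- and D9T-, and had one in each of D12S+, D16S+ and iPSCs. Of 22380 protein-coding gene entries of the mm9 annotation, 6805 were unbound in the 4 early libraries and 120 met the whole rule. The H3.3 values of those 7 libraries chose the members, so below they only describe them.

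Retroviral Oct4, Sox2, Klf4 and c-Myc (OSKM) were carried by pMXs vectors into MEFs of mid-gestation embryos, whose Oct4 (Pou5f1) locus carries EGFP behind an IRES. D0 were uninfected MEFs, D3 were unsorted cells on day 3, and cells of days 6 and 9 were sorted by Thy-1, a fibroblast surface protein. Cells of days 12 and 16 were sorted by SSEA-1, a surface antigen of pluripotent cells. D6T-, D9T-, D12S+ and D16S+ form the successful route, and D6T+, D9T+, D12S- and D16S- are the unsuccessful fractions of the same days. Per the labels, infected cells, iPSCs and ESD3, a line of embryonic stem cells, were kept in a feeder-free medium, for infected cells one with KSR, LIF, bFGF, CHIR99021 and ascorbic acid. H3.3 was profiled by ChIP-Seq in all of these, and H3K4me3 and H3K36me3 in the 7 libraries of the successful route. Another 4 H3.3 libraries came from transdifferentiation of MEFs towards blood progenitors with Scl, Lmo2, Runx1 and Bmi1: uninduced MEF, D4 from day 4, and later cells split by the receptor cKit (cKit+ and cKit-). Every group was 1 library, so no difference between groups has a replicate check and none was tested.

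H3.3 is a variant of histone H3 that cells can place into chromatin outside DNA replication, for example through the chaperone Hira at active genes. H3K4me3 marks the promoters of active or poised genes, and H3K36me3 is laid down along transcribed gene bodies. In pluripotent cells H3.3 is found at active genes and also at some silent, repeated parts of the genome.

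The 12 reprogramming H3.3 libraries held 18.7 to 41.2 M tags and 34062 to 89727 peaks. A score is the number of tags in a peak per 10 M tags of the library, and a gene's score is the sum over its peaks. The smallest called peaks of these libraries had 10 to 18 tags, so a gene without a peak may hold H3.3 below that level. The labelled cell types could be followed by H3.3 at 8 fibroblast and 8 pluripotency markers. Fibroblast markers had peaks at 8 of 8 genes in D0, 4 in D12S+ and 1 in iPSCs, and pluripotency markers at 2 of 8 in D0, 7 in D12S+ and 8 in iPSCs. In a bulk library, fewer cells with H3.3 at a gene and less H3.3 per cell cannot be told apart.

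A repeated DNA sequence stood at several of the places the members share, and it is printed first because it returns below. In 75 of the 120 members (62.5%) the peaks of D12S+, D16S+ and iPSCs overlapped at 1 place. Of all genes bound in D12S+, D16S+ and iPSCs this held for 4632 of 7601 (60.9%), a share near that of the members. A window of 300 bases was read at the centre of each such place in the members. Words of 25 bases that occurred in the windows of 5 or more members were collected without regard to strand, which gave 30 words, and 10 members held at least 1 of them. The 4 windows shown lie in introns, at chr6:3646221-3646520 in Calcr (calcitonin receptor), chr19:40140536-40140835 in Cyp2c54 (a cytochrome P450), chr4:145478647-145478946 in Gm13235 and chr9:3141794-3142093 in 4930433N12Rik. Each is written 5′ to 3′ on the strand of its gene, from mm9, and capitals mark the recurring words.
Calcr intron (minus strand): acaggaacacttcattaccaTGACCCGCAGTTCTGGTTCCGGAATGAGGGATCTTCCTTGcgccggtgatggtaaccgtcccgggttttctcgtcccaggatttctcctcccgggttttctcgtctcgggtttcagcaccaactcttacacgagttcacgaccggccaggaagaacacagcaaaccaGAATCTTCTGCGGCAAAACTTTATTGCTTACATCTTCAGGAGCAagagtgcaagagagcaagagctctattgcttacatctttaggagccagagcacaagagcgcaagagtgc
Cyp2c54 intron (minus strand): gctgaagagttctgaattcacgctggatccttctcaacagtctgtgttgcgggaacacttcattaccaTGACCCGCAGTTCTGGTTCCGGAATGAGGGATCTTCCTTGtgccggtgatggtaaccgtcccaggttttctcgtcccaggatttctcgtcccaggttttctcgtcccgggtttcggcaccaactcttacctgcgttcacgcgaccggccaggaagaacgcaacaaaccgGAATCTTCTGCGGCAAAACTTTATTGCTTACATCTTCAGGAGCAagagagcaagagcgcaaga
Gm13235 intron (plus strand): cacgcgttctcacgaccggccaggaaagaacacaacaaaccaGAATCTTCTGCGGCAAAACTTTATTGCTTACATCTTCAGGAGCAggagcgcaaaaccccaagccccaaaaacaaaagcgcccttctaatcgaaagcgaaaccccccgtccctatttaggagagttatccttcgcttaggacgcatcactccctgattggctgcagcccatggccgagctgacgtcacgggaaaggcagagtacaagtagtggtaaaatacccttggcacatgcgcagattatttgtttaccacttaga
4930433N12Rik intron (minus strand): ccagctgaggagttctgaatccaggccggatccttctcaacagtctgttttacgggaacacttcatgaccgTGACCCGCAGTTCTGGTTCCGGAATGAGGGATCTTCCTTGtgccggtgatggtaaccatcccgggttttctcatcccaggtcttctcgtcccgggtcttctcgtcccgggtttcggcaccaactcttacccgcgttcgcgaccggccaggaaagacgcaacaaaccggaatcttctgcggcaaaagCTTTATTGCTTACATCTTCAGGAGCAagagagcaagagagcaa
The windows held 15, 19, 16 and 20 CpG dinucleotides respectively. In all 4 genes an ESD3 peak also met the shared place.

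Further sequences show the promoters, as the 250 bases directly before the annotated gene start, with CpG in capitals. The H3K4me3 mark was present at Igfbp2 from D0, and at Dppa2 and Gm13154 (RefSeq symbol Zfp985) only from D12S+ or later. The windows lie at chr1:72870827-72871076 (Igfbp2), chr16:48310340-48310589 (Dppa2) and chr4:146927136-146927385 (Gm13154), all on the plus strand.
Igfbp2 promoter: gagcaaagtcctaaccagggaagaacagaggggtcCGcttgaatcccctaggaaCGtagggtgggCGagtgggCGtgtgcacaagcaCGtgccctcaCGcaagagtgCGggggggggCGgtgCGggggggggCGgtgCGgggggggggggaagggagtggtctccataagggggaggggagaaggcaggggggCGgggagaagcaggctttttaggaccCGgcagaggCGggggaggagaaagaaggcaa
Dppa2 promoter: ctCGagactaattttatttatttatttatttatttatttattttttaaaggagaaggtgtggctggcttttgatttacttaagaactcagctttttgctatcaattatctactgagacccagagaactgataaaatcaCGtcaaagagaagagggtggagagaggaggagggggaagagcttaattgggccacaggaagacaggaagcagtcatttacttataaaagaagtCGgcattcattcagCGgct
Gm13154 promoter: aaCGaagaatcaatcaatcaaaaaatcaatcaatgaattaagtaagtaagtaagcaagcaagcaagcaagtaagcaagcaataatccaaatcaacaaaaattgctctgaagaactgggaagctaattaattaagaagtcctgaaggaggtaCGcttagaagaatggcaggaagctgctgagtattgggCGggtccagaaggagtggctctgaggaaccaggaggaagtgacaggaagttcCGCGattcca
They contained 14, 4 and 5 CpG. For Dppa2, the place at which D12S+, D16S+ and iPSCs overlapped lay just upstream of this promoter window and was 500 bp long, with no ESD3 peak on it. Its central 300 bases, at chr16:48309925-48310224, are shown with capitals for motifs, of which none was found.
Dppa2 shared place (plus strand): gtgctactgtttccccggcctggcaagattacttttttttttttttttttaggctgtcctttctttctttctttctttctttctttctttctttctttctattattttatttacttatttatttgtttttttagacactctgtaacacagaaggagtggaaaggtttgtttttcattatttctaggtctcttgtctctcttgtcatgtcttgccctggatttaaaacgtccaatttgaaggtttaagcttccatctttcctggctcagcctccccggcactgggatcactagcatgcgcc

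The members were a mixed group by function. Of 9 lists of genes, pluripotency genes gave 1 member of 56, Dppa2, and genes of trophoblast and primitive endoderm gave 2 of 26, Tcfap2c and Hand1. The epithelial (43 genes), germline and meiosis (54), 2-cell (13), neural (33), fibroblast (40), hematopoietic (23) and H3.3 machinery (11) lists held none. Few listed genes could qualify, since only 9 pluripotency genes and 2 epithelial genes were unbound in the 4 early libraries. The lists were written with the results of these data known. By name, the members included interferon-induced genes (Oas1a, Oas1g and Gbp4), cytochrome P450 genes (Cyp2c54, Cyp2c67 and Cyp2j11), sulfotransferases (Sult2a2 and Sult2a3), genes expressed in testis or sperm (Stk31, Zpbp and Pxt1), genes of the nerve terminal (Pclo and Rimbp2) and a ribosomal protein gene (Rps20). These names were picked after the list was seen. Of the olfactory receptor genes, 0 of 1113 were members, and 4 of 328 vomeronasal receptor genes were. Of the Zfp family, zinc finger proteins, 3 of 374 genes were members by the annotation's symbols (0.802%, and 0.536% of all genes were members). By RefSeq symbols 9 members were Zfp genes, and no share over all genes was computed for these symbols.

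Members lay close together more than once. Within 1 Mb of another member were 40 genes, in 16 runs. Such a count was not made for other sets of genes, so whether members lay closer together than other genes was not tested. Several runs were copies of 1 family, such as Oas1a with Oas1g and Cyp2c54 with Cyp2c67. The longest run was 7 genes in chr4:145100662-147183895: Gm13225, Gm13235, Gm13138, Gm13139, Gm13145, Gm13154 and Gm13157. RefSeq names Gm13139, Gm13145, Gm13154 and Gm13157 as the zinc finger genes Zfp991, Zfp978, Zfp985 and Zfp984. The authors discarded reads that mapped to more than 1 place, so the scores of such near-identical copies are uncertain. Of the members, 2 pairs were counted on the same peaks (Gm8909 with RP23-108F2.6, and Ceacam16 with RP23-191I16.2).

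Along the route the H3.3 scores of most members were higher in each later library. Of all genes 59.0, 55.2, 57.3 and 55.4% were bound in D0, D3, D6T- and D9T-, where members had none by the rule, and 48.1, 41.5 and 59.1% in D12S+, D16S+ and iPSCs, where all 120 did. D12S+ had a median score of 9.77, D16S+ of 17.2 and iPSCs of 41.4. The score was higher in iPSCs than in D12S+ at 102 of 120 members (85.0%, and 72.6% of all genes bound in both). It was higher in D16S+ than in D12S+ at 85 (70.8%, all genes 29.0%). From D16S+ to iPSCs the members were below all genes, with a higher score in iPSCs at 92 (76.7%, all genes 86.1%). The rule used these libraries, so the comparisons with all genes are a description. In D12S+ most members had a single peak (99 of 120), which spanned a median of 0.65 kb. In iPSCs the median was 2 peaks and 2.84 kb. The D12S+ peaks were thus small at most genes. A score of at least 10 was reached there by 59 members, 49 had such a score in all 3 late libraries, and 3 members reached 50 in all of them. Those 3 were Sfi1, Gm6804 and Prdx2. Gm6804, a gene model with no given name, scored 71.5, 130 and 289 in D12S+, D16S+ and iPSCs, and 36.8 in ESD3. Skint4, of a family of selection genes for skin T cells, scored 48.9, 54.4 and 99.8. Pxt1, a testis gene, scored 30.7, 50.9 and 101. These 3 were highest in iPSCs. Gm2864 scored 42.0, 43.4 and 67.4, Gm16432 (RefSeq Catspere2, the entry of 181.3 kb) scored 34.2, 50.6 and 139, and 1700008F21Rik (Ccdc7b) scored 26.7, 39.4 and 51.5. Other strong members had another order, such as Rps20, with 91.3, 74.1 and 29.7. Just inside the rule were Hand1, Cyp2j11 and Gm10083, with scores of 5.10, 5.22 and 5.22 in iPSCs. Just outside stood 372 genes that missed the rule in 1 library. For D9T-, the commonest early miss with 64 genes, the weakest excluding peak was that of Dtx1, with a score of 5.41.

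**Figure D1:**
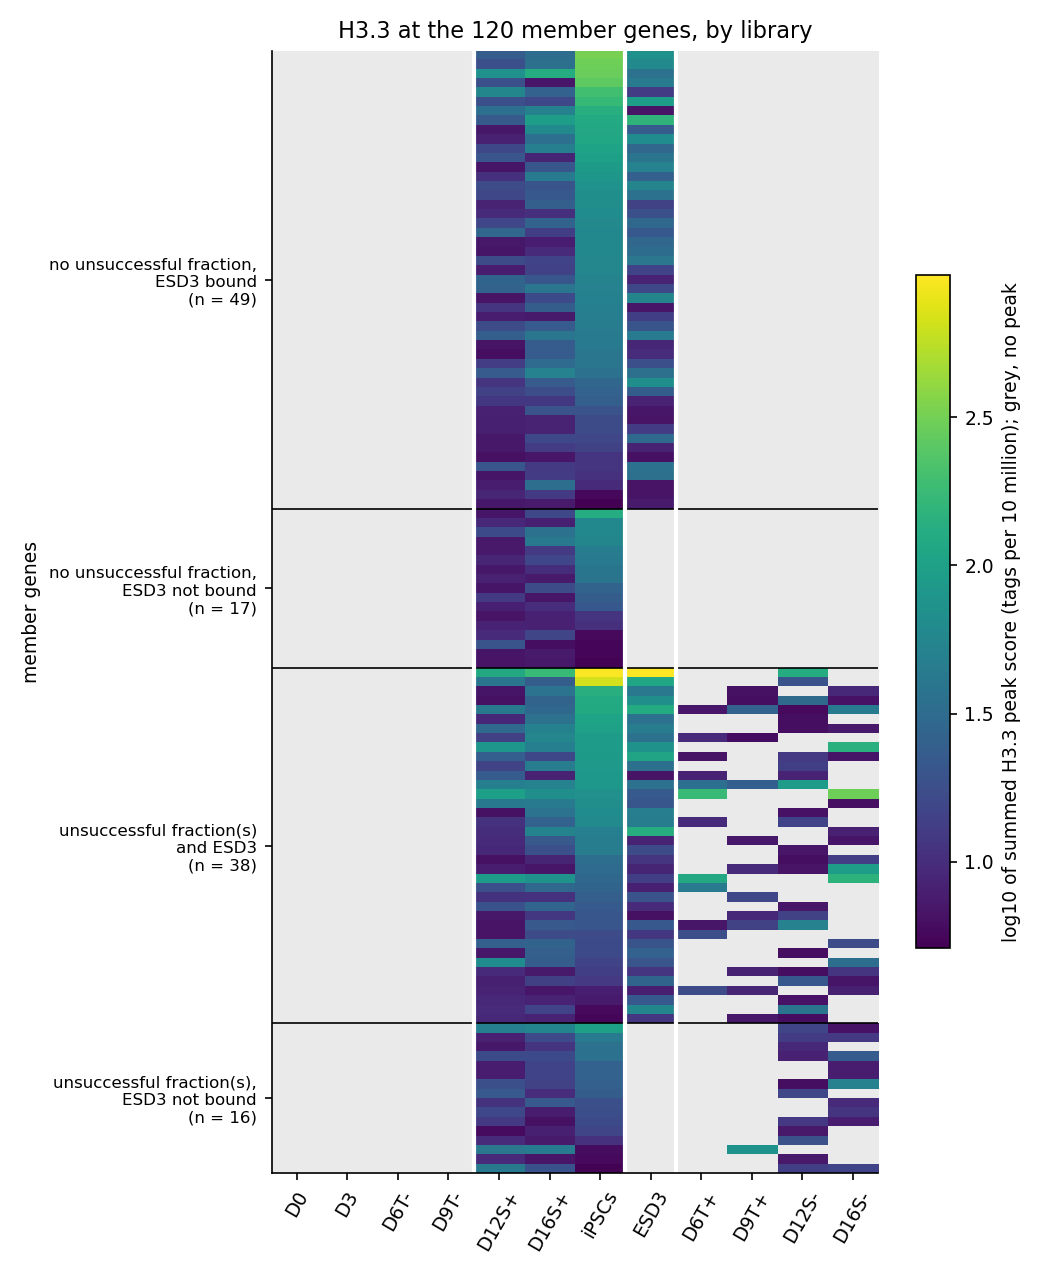
Summed H3.3 peak score (log10 of tags per 10 M tags, colour) at the 120 member genes (rows) in 12 libraries (columns), with grey for no peak; D0 to D9T- are empty and D12S+ to iPSCs full by the rule. Rows are grouped by H3.3 in the 4 unsuccessful fractions and in ESD3: 49 members had it in ESD3 and in no unsuccessful fraction, 17 in neither, 38 in both and 16 in unsuccessful fractions without ESD3. Of all genes these 4 groups made up 3.62, 29.8, 46.8 and 19.9%.

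Some members are short genes next to strong early peaks, which the rule admits by its use of midpoints. In 25 members an early H3.3 peak reached into the gene or its 1 kb flanks although its midpoint lay outside, and in 9 of them this was so in all 4 early libraries. They were concentrated in short genes: 17 of the 36 members under 10 kb were touched. Prdx2, an antioxidant peroxiredoxin, was touched by early peaks with scores of 330.5 (D0), 305.4 (D3), 516.6 (D6T-) and 351.1 (D9T-). These exceed its late scores of 97.3, 68.8 and 71.2 in D12S+, D16S+ and iPSCs. Rps20, a protein of the small ribosomal subunit, Romo1, a mitochondrial protein, and Hist1h2ah, a histone H2A gene, were likewise touched in all 4 early libraries. At these genes the early peaks were not counted because their midpoints lay outside. Results are therefore also given for the 95 members that no early peak touched.

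ESD3, which the rule did not use, had H3.3 at 87 members (72.5%, 95% Wilson interval 63.9 to 79.7). The interval covers counting error over genes only. Among all genes the share was 50.4%, and among the other genes unbound in the early libraries it was 8.54%. Members were bound in iPSCs by the rule, and of all genes bound in iPSCs 77.2% were bound in ESD3, a share within the members' interval. Of all genes bound in D12S+, D16S+ and iPSCs it was 89.4%, and of the 772 other genes unbound early and bound in iPSCs 42.2%. It was 81.2% for genes that gained lasting H3.3 from D9, 59.7% for those from D16 and 36% for those bound only in iPSCs. Of the 95 members untouched by early peaks, 67.4% had H3.3 in ESD3. Where both ESD3 and iPSCs had a peak, the 2 peaks overlapped in 79 of 87 members (90.8%), against 79.8% of all genes bound in both.

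Zfp936, a zinc finger gene at chr7:50442540-50445851, had a score of 154 in ESD3 beside 22.6, 93.3 and 125 in D12S+, D16S+ and iPSCs. It had no H3.3 peak in the 4 unsuccessful or the 4 transdifferentiation libraries, and no H3K4me3 peak anywhere. Igfbp2, which encodes an insulin-like growth factor binding protein, scored 10.2, 53.1 and 49.1 along the late route and 132 in ESD3, with 8.29 in D16S- alone among the unsuccessful fractions. Icam1, an adhesion molecule, scored 42.2, 30.1 and 123, and 129 in ESD3. Fgr, a Src-family kinase of myeloid cells, reached 107 in ESD3 and 89.1 in iPSCs. These were among the members with the highest ESD3 scores, and over the 87 members the ESD3 score was below that of iPSCs in 66.

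Sfi1, a centrosomal protein gene at chr11:3031853-3093466, had the highest score of all members in ESD3 (954) and in iPSCs (925). Its scores in D12S+, D16S+ and D12S- were 123, 177 and 129. It had no peak in D0, yet scored 999 in the MEF library of the transdifferentiation series, which is also of uninduced fibroblasts. Its other marks were as uneven, with H3K4me3 in D6T- (144) and iPSCs (631) and H3K36me3 in D9T- alone (1686). The libraries of uninduced fibroblasts thus differed at Sfi1.

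**Figure D2:**
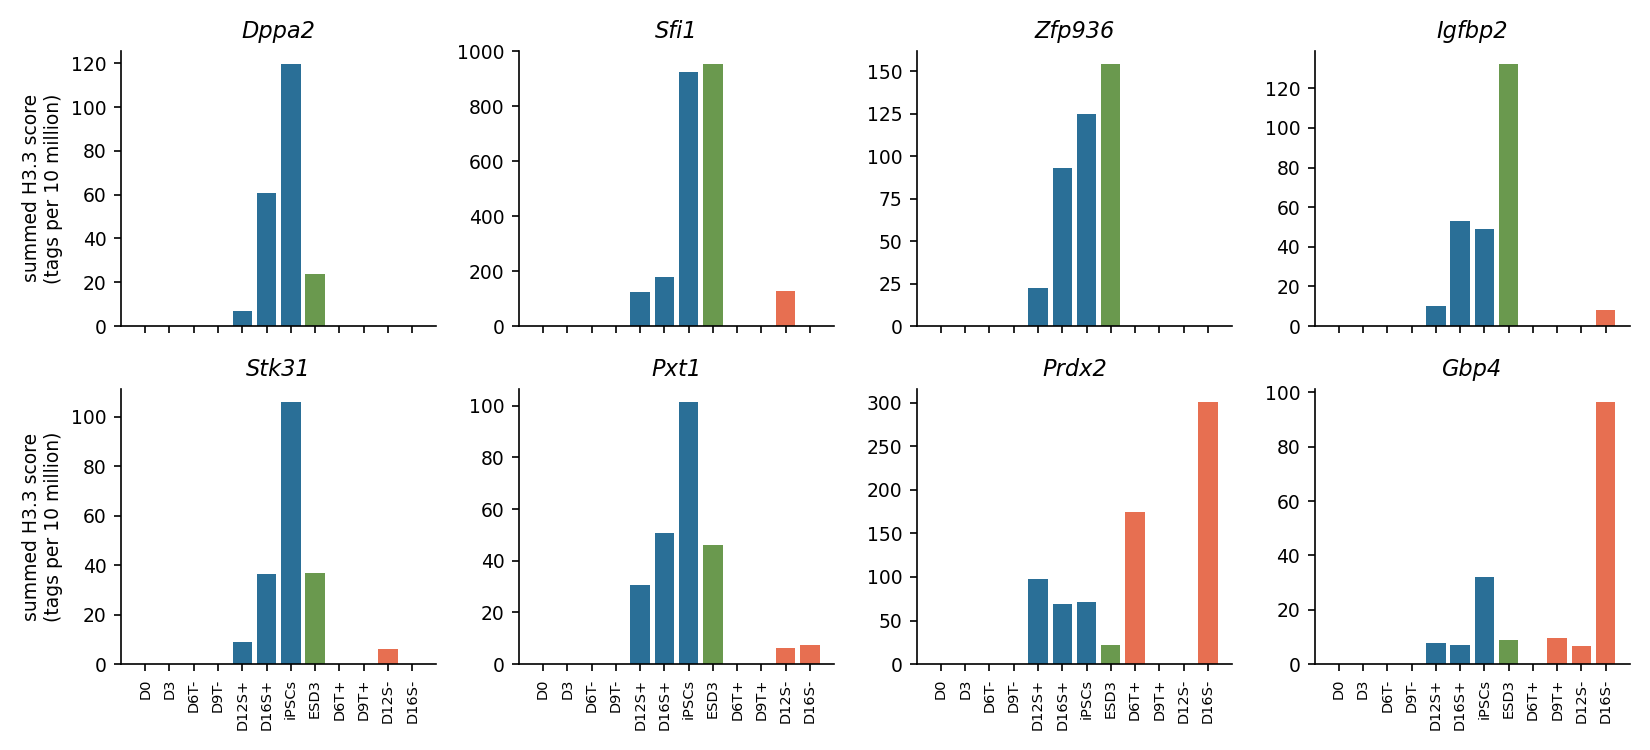
Summed H3.3 score (tags per 10 M tags) of 8 member genes in 12 libraries; grey marks the early libraries (all at 0 by the rule), blue D12S+, D16S+ and iPSCs, green ESD3 and orange the unsuccessful fractions. Dppa2 and Zfp936 have no bar in an unsuccessful fraction, while Prdx2 (301 in D16S-) and Gbp4 (96.5 in D16S-) are highest there.

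The unsuccessful fractions held H3.3 at fewer members. On days 6 and 9 it was found at 12 members in D6T+ (10.0%, interval 5.81 to 16.7, all genes 50.6%) and at 14 in D9T+ (11.7%, interval 7.08 to 18.6, all genes 52.2%). In D12S- it was found at 35 (29.2%, interval 21.8 to 37.8, all genes 60.1%) and in D16S- at 28 (23.3%, interval 16.7 to 31.7, all genes 54.1%). Members were chosen as unbound early, and among the other genes unbound early the shares were 1.39, 1.66, 4.44 and 2.74%. Of those other genes only 11.5% were bound in iPSCs. For genes that gained lasting H3.3 from D9 the shares were 17.2, 32.8, 67.2 and 51.6%. For those from D16 they were 4.03, 4.03, 22.6 and 13.7%, and the members lay between these sets. In D6T+ and D9T+ the shares were 4.21 and 5.26% for the 95 members not touched by an early peak. In D12S- and D16S- they were 26.3 and 17.9%.

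Against their partner of the same day, 85 of 120 members bound in D12S+ had no peak in D12S- (70.8%), while this held for 7.13% of all genes bound in D12S+. It also held for 73.8% of the 160 other genes that were unbound early and bound in D12S+, so this share was close to that of other late-bound genes and is not particular to the members. On day 16, 92 members had no peak in D16S- (76.7%), against 84.8% of the 217 comparable genes bound in D16S+. Over all gene entries, the same calls made up 3.43% for D12S+ without D12S- and 5.27% for D16S+ without D16S-.

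No unsuccessful fraction held H3.3 at 66 members (55.0%, interval 46.1 to 63.6), compared with 33.4% of all genes and 91.7% of the genes unbound early. The share was 15.6% for genes that gained lasting H3.3 from D9 and 67.7% for those from D16. Dppa2, which encodes a chromatin protein of pluripotent and germ cells, belonged to this group. It had scores of 7.11 in D12S+, 60.8 in D16S+, 120 in iPSCs and 23.6 in ESD3. Gm13235 scored 18.4, 16.0 and 168 along the late route and 93.9 in ESD3. Gdpd4, a gene of the glycerophosphodiester phosphodiesterase family, scored 11.1, 22.7 and 28.8, and 69.4 in ESD3. Akd1, a nucleotide kinase that RefSeq names Ak9, scored 8.22, 34.7 and 116, and 65.0 in ESD3. Gdpd4 and Akd1 also had peaks in D4 of transdifferentiation, with 38.1 and 54.3.

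In at least 1 unsuccessful fraction 54 members were bound, most often in a day 12 or day 16 fraction (49 members) and less often on day 6 or 9 (21 members). Icam1 alone was bound in all 4, with scores from 5.85 (D12S-) and 6.98 (D6T+) to 26.5 (D9T+) and 42.7 (D16S-). Prdx2 scored 174 in D6T+ and 301 in D16S-, and Rps20 scored 121 and 150 in the same libraries. AA474408 had 142 in D16S- alone, beside 79.7, 49.1 and 91.2 in D12S+, D16S+ and iPSCs. Early peaks touched all 4 of these genes, Icam1 in D6T- and D9T- and the others in every early library. Gbp4, an interferon-induced guanylate binding protein, scored 96.5 in D16S- against 6.93 in D16S+ and 32.0 in iPSCs. The interferon-induced Oas1a scored 23.4 in D16S- and 16.5 in D16S+, and H2-Q4, an MHC class I gene, 51.9 and 14.1. D16S- was thus higher than D16S+ at all 3, as it was at 83.4% of all genes bound in both. On day 12 all 3 were lower in D12S- than in D12S+, with 6.77 and 7.78 at Gbp4, 8.23 and 16.4 at Oas1a, and 6.22 and 18.2 at H2-Q4. Oas1a and H2-Q4 were chosen after their values were seen.

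Scores could be compared at members bound in both fractions of a day, as a description, since the rule used the successful one. On day 12 the score was higher in D12S- at 13 of 35 members (37.1%, interval 23.2 to 53.7), against 91.5% of the 10004 genes bound in both and 24 of the 42 other genes unbound early (57.1%, interval 42.2 to 70.9). On day 16 it was higher in D16S- at 13 of 28 (46.4%, interval 29.5 to 64.2), against 83.4% of 8119 genes and 22 of 33 other genes unbound early (66.7%, interval 49.6 to 80.2). The intervals of members and other early-unbound genes overlapped on both days. The median log2 ratio of the unsuccessful to the successful fraction was -0.20 and -0.41 for members and 1.61 and 1.35 for all genes. The libraries differed in the share of their tags that lay in peaks. It was 21.96% in D12S- and 6.93% in D12S+, and 12.21% in D16S- and 4.88% in D16S+. Scores are scaled to all tags of a library and do not correct for this, and its part in the ratios was not tested. The peaks of the 2 fractions met at the same place in 17 of 35 members on day 12 (48.6%), while for all genes bound in both this was 86.2%. On day 16 it was 15 of 28 (53.6%) against 72.7%. Marker genes of cell types also differed between the fractions of a day. Pluripotency markers had peaks at 4 of 8 genes in D12S- (summed score 499) and 5 of 8 in D16S- (415), with none at Esrrb, Zfp42 and Tdgf1 in either. D6T+ and D9T+ had 1 of 8 each (13.5 and 7.12). Fibroblast markers had peaks at 6 of 8 genes in D12S- (1038) and D16S- (464), with none at Thy1 and Postn. In D12S+ and D16S+ pluripotency markers had peaks at 7 of 8 genes (911 and 3404), and fibroblast markers at 4 (50.2) and 1 (12.8). Epithelial markers had them at 7 of 8 genes in D12S- and 8 in D16S-, and at 6 in D12S+ and D16S+. Hematopoietic markers had them at 5 of 8 in D12S- (1058) and 3 in D16S- (709), against 3 in D12S+ (60.4) and 2 in D16S+ (26.2). What part these differences play in the members' values was not tested.

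**Figure D3:**
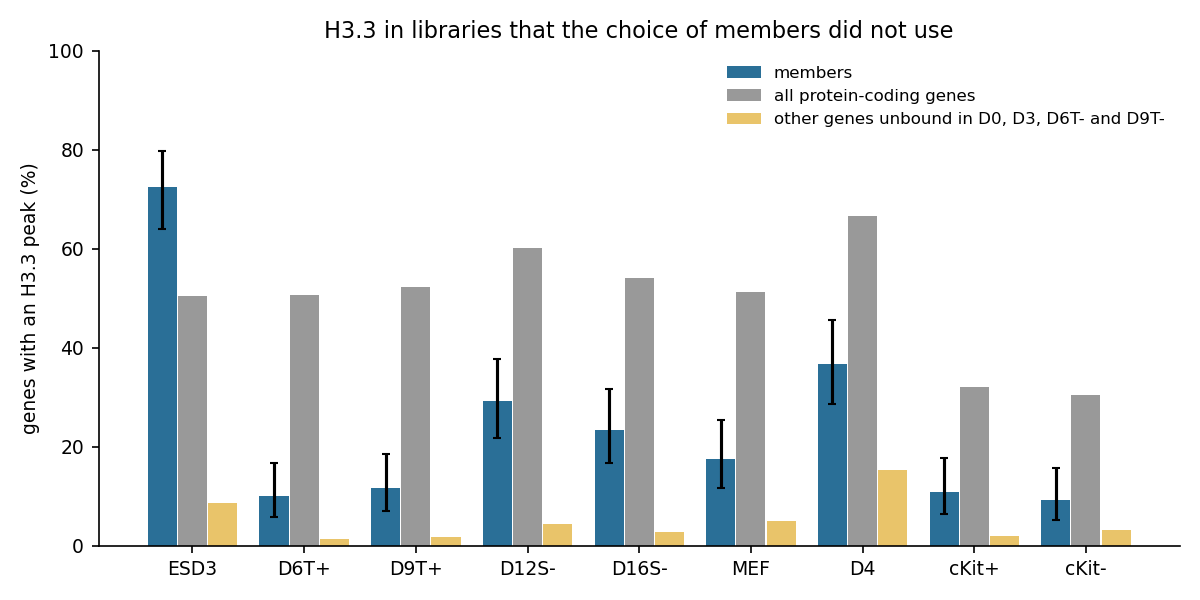
Percentage of genes with an H3.3 peak in ESD3, the 4 unsuccessful fractions and the 4 transdifferentiation libraries, for the 120 members (blue, bars with 95% Wilson intervals), all protein-coding genes (grey) and other genes unbound in D0, D3, D6T- and D9T- (yellow). In ESD3 the members stand at 72.5% and all genes at 50.4% (77.2% of the genes bound in iPSCs), and in the other 8 libraries they lie between the other early-unbound genes and all genes.

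In transdifferentiation 61 members were bound in at least 1 library, and 59 in none (49.2%, all genes 27.9%). Of the genes unbound early 79.8% were bound in none. For genes that gained lasting H3.3 from D9, from D16 and only in iPSCs it was 23.4, 50.0 and 55.3%, so the members' share is not particular to them. By library, the bound members numbered 21 in MEF (17.5%, all genes 51.3%), 44 in D4 (36.7%, all genes 66.7%), 13 in cKit+ (10.8%, all genes 32.0%) and 11 in cKit- (9.17%, all genes 30.5%). D4 had the most tags in peaks of these libraries, 37.2% of its tags. Rab24, a small GTPase gene, scored 463 in D4, and Tmem88, a transmembrane protein gene, 282. These were the highest member scores in that library, and both genes are short and were touched in all 4 early libraries. Without the touched members the share in MEF was 10.5%. In cKit+ the highest score of a member was 10.7 (Prdx2).

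Most members carried H3K4me3 at some stage, and many had it in libraries where H3.3 was not called. The mark was present at 65 members in D0 (54.2%, all genes 68.6%), 61 in D3 (50.8%, 66.9%), 63 in D6T- (52.5%, 67.9%) and 66 in D9T- (55.0%, 67.1%). It was present at 74 in D12S+ (61.7%, all genes 64.9%), 53 in D16S+ (44.2%, 50.9%) and 90 in iPSCs (75%, interval 66.6 to 81.9, all genes 67.8%). In iPSCs 22.6% of the genes unbound early had the mark. Members have H3.3 in the late libraries by the rule. Of the 13218 genes with H3.3 in iPSCs, 12183 had H3K4me3 there, and of the 10772 with H3.3 in D12S+, 10005 did. Members had the mark less often than such genes in both libraries. Among the 95 members that no early H3.3 peak touched, the shares were lower early on, with 44.2% in D0, 41.1% in D3 and 43.2% in D6T-. D16S+ was the shallowest of the H3K4me3 libraries, with 15.8 M tags and 19633 peaks.

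By timing, 57 members had H3K4me3 in all 4 early libraries (47.5%, all genes 63.5%). Of the 95 untouched members, 36 did (37.9%), and at the other 21 an early H3.3 peak reached the gene as well. In another 16 it was present in some early libraries (13.3%, all genes 8.32%), and in 16 it was absent from all 7 (13.3%, all genes 25.3%). The remaining 31 had it only from D12S+ or later (25.8%, interval 18.8 to 34.3, all genes 2.92%), and none of these 31 was touched. Of all genes unbound early 5.70% did so, and of genes that gained lasting H3.3 from D9, from D16 and only in iPSCs 9.38, 16.9 and 13.4%. The rule took its H3.3 peaks from the same cell populations. It required H3.3 in every late library, but many of the 31 had H3K4me3 in only some of these libraries. In iPSCs 26 of the 31 had H3K4me3. Some calls were weak, such as a score of 5.83 in D12S+ alone at Gdpd4.

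Within the late class, Dppa2 scored 26.5, 33.2 and 137 for H3K4me3 in D12S+, D16S+ and iPSCs. The zinc finger genes of the chromosome 4 run belonged here in part. Gm13225 scored 56.4, 29.7 and 492, Gm13145 scored 10.7, 9.17 and 271, and Gm13154 had the mark in iPSCs alone (432). Their H3.3 scores in iPSCs were 328, 263 and 301, from 23.8, 18.4 and 18.4 in D12S+. Gm13157 had the highest H3.3 score in iPSCs after Sfi1, 664, but carried H3K4me3 from D0 (156) to iPSCs (407) without a gap. Gm7221, on chromosome 7 and named Zfp977 by RefSeq, scored 24.4, 64.2 and 160 for H3K4me3. Stk31, a kinase gene of the testis, had only 5.65 in iPSCs, although its H3.3 was 9.11 in D12S+ and 106 in iPSCs. AU018091 had the mark earlier, with 12.7 in D6T-, 33.1 in D9T- and 169 in iPSCs.

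Among members with early H3K4me3 were the trophoblast genes. Tcfap2c, which encodes a transcription factor of trophoblast and germ cells, scored 154 in D0, 173 in D9T- and 163 in iPSCs, while its H3.3 was 7.11, 25.1 and 16.4 in D12S+, D16S+ and iPSCs. It is among the touched genes, in 2 early libraries. Hand1, a transcription factor of trophoblast and heart, scored 87.1 in D0 and 62.3 in iPSCs, and its H3.3 stayed at 7.11, 7.47 and 5.10, near the limit of detection. Calcr scored 45.2 in D0, 13.4 in D9T- and 41.4 in iPSCs. Gbp4 had low H3K4me3 in every library, between 5.71 and 10.3.

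The classes differed in length, in the unsuccessful fractions and in promoter sequence. Members with the mark in all 4 early libraries had a median length of 12.4 kb (all genes 15.4 kb). Of these, 37 of 57 were bound in at least 1 unsuccessful fraction (64.9%, near the 66.6% of all genes). Members with the late mark were longer (43.0 kb), and 8 of 31 (25.8%) were bound there. Early H3.3 peaks touched some early-class members and no late-class member, and the contrast was not repeated without the touched members. In ESD3 the shares were 43 of 57 (75.4%) and 20 of 31 (64.5%), with overlapping intervals of 62.9 to 84.8 and 46.9 to 78.9. In the 250 bases before the gene start, the median was 3.20 CpG per 100 bases for the early class and 0.80 for the late class, compared with 2.00 over all members and 3.20 over all genes. At least 5 CpG per 100 bases were found at 23 of 57 early-class (40.4%) and 2 of 31 late-class promoters (6.45%). Among all genes the share was 38.3%, so the early class was near all genes and the late class below them. The Igfbp2 promoter printed above has 5.60 per 100 bases, and those of Dppa2 and Gm13154 have 1.60 and 2.00.

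**Figure D4:**
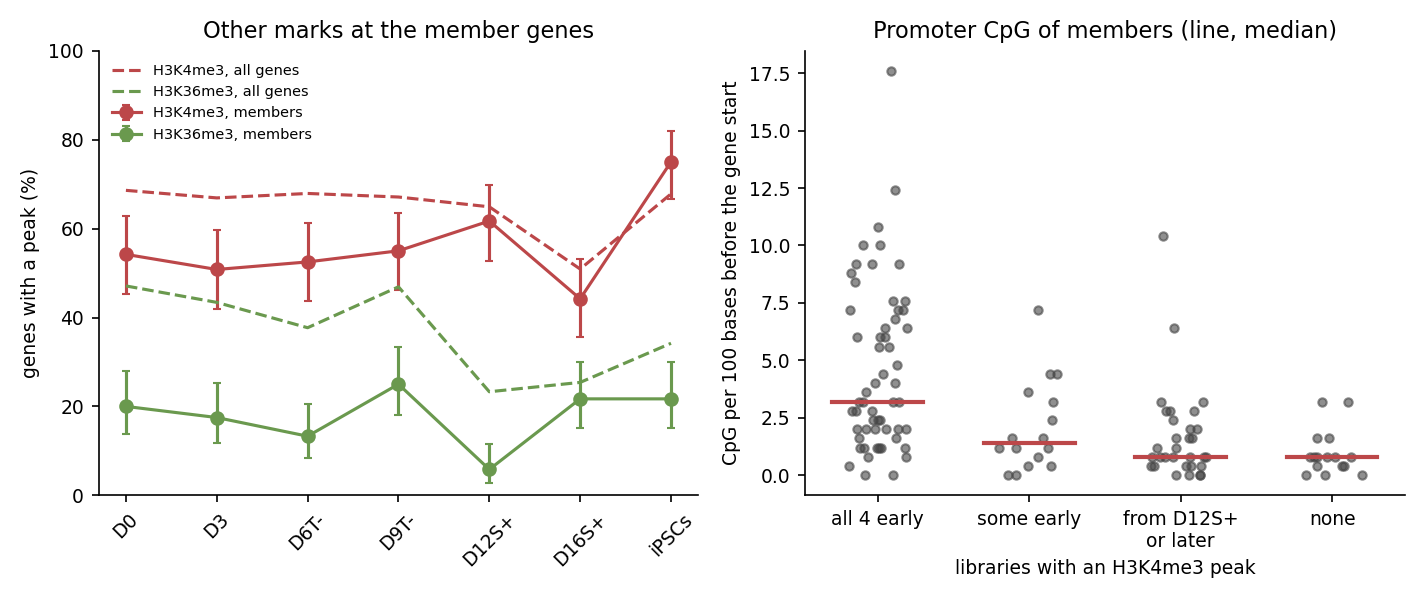
Left, percentage of genes with an H3K4me3 (red) or H3K36me3 (green) peak in 7 libraries. Points with 95% Wilson intervals are the 120 members, and dashed lines are all protein-coding genes. H3K4me3 at members reaches 75% in iPSCs, where 12183 of the 13218 genes with H3.3 had it. Right, CpG per 100 bases in the 250 bases before the gene start of each member (points), by the libraries in which it had H3K4me3; the median (line) is 3.20 where all 4 early libraries had the mark and 0.80 where it came from D12S+ or later.

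H3K36me3 was called at a minority of members. They numbered 24 in D0 (20%, all genes 47.1%), 21 in D3 (17.5%, 43.4%), 16 in D6T- (13.3%, 37.7%) and 30 in D9T- (25%, 46.9%). They numbered 7 in D12S+ (5.83%, all genes 23.3%), 26 in D16S+ (21.7%, 25.4%) and 26 in iPSCs (21.7%, 34.2%). The mark was absent from all 7 libraries at 63 members (52.5%, all genes 42.8%). It was absent at 89.9% of the genes unbound early, and in single libraries 1.36 to 5.0% of the other genes unbound early had it. Members thus had the mark less often than all genes and more often than genes unbound early. D12S+ gave only 12322 H3K36me3 peaks, the fewest of the 7. Qrsl1, a mitochondrial glutaminyl-tRNA amidotransferase subunit, scored 90.6 in D0, 290 in D9T- and 70.4 in iPSCs. Zfp936 and Gm7221 had it in D16S+ (32.6 and 45.9) and iPSCs (17.5 and 32.5). Dppa2 had none.

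Peaks at members lay mostly inside introns. In iPSCs 238 of 305 member peaks were intronic (78.0%, all genes 76.3%), 28 were at promoters (9.18%, all genes 8.06%), 25 in exons and 14 at gene ends. In D12S+ the promoter share was higher, 24 of 153 peaks (15.7%, all genes 9.33%). At 66 members iPSCs had intronic peaks only. H3.3 and H3K4me3 peaks overlapped in iPSCs at 68 of the 90 members that had both (75.6%, all genes 83.8%). D12S+ and iPSCs peaks overlapped at 98 of 120 members (81.7%, all genes 80.2%). The place of the D12S+ peak was thus mostly still covered in iPSCs, at a share near that of all genes.

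Short motifs occurred at member peaks at shares near those of all peaks at genes. Both strands of windows of 500 bases at the midpoints of iPSCs peaks were searched, 303 at members and 50539 at any gene. The octamer ATGCAAAT, bound by Oct4 and related factors, occurred in 3.63% of member windows and 2.72% of all. GGGTGTGG, a Klf-like motif, occurred in 5.94 and 5.53%, TGANTCA, an AP-1 motif, in 14.5 and 14.0%, and CACGTG, the E-box of Myc, in 7.26 and 7.02%. TCAAGGTCA, bound by Esrrb, occurred in 0.660 and 1.74%. The joint Sox and Oct motif, which contains most of the octamer, was found in 0 member windows and 0.0455% of all. Median GC content was 47.0% and median CpG 1.20 per 100 bases in both sets of windows. A match to such a motif is a description of the letters and says nothing of binding.

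The recurring words printed above were spread unevenly over libraries. They were picked after the sequences were seen. Each of the 30 words has 640 to 5198 copies in mm9, and together they fall into 5657 places over 500 bases apart. In windows of 500 bases at peak midpoints, 14 members held such a word in D12S+, 14 in D16S+, 9 in iPSCs and 9 in ESD3. No member held one in the 4 unsuccessful or 4 transdifferentiation H3.3 libraries. Those libraries had peaks at only 11 (cKit-) to 44 (D4) members. The words were taken from late peaks of members, so these counts at members only describe them. In all, 18 members held such a word in at least 1 late library, among them Calcr, Cyp2c54, Dhrs2, Pxt1, Cngb3, Cntnap3, Pclo, Qrsl1 and Defb41. H3.3 scores of Calcr were 15.6, 21.6, 69.1 and 35.9 in D12S+, D16S+, iPSCs and ESD3, and those of 4930433N12Rik were 7.78, 7.47, 48.1 and 13.4. Neither had a peak in another H3.3 library.

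Outside the member genes, which were used to find the words, the same pattern was seen in H3.3 peaks. A word was found in 470 of 45699 other peaks of D12S+ (1.03%, interval 0.940 to 1.13), 784 of 33781 of D16S+ (2.32%), 1619 of 81239 of iPSCs (1.99%) and 1057 of 52243 of ESD3 (2.02%). The early libraries had 8 of 89614 (D0), 9 of 74595 (D3), 9 of 82669 (D6T-) and 8 of 68309 (D9T-). The unsuccessful fractions had 7 of 60605 (D6T+), 5 of 64094 (D9T+), 19 of 87382 (D12S-, 0.0217%, interval 0.0139 to 0.0340) and 5 of 65330 (D16S-). In transdifferentiation the share was at most 0.0494%, in MEF. H3K4me3 peaks held a word in 0.0343% in D0 and 0.295% in iPSCs. H3K36me3 peaks had no common direction, with 0.0945% in D0, 0.0859% in D3, 0.0895% in D6T- and 0.183% in D9T-. In the late libraries the share was 0.0569% in D12S+ (7 peaks), 0.133% in D16S+ (22 peaks) and 0.0375% in iPSCs (10 peaks). Reads from identical copies were discarded by the authors, so only copies that differ, or their edges, could be counted. No annotation of repeats was used here, and the sequence is left unnamed. The 102 members without such a word had H3.3 in ESD3 at 69.6% and in no unsuccessful fraction at 52.9%.

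**Figure D5:**
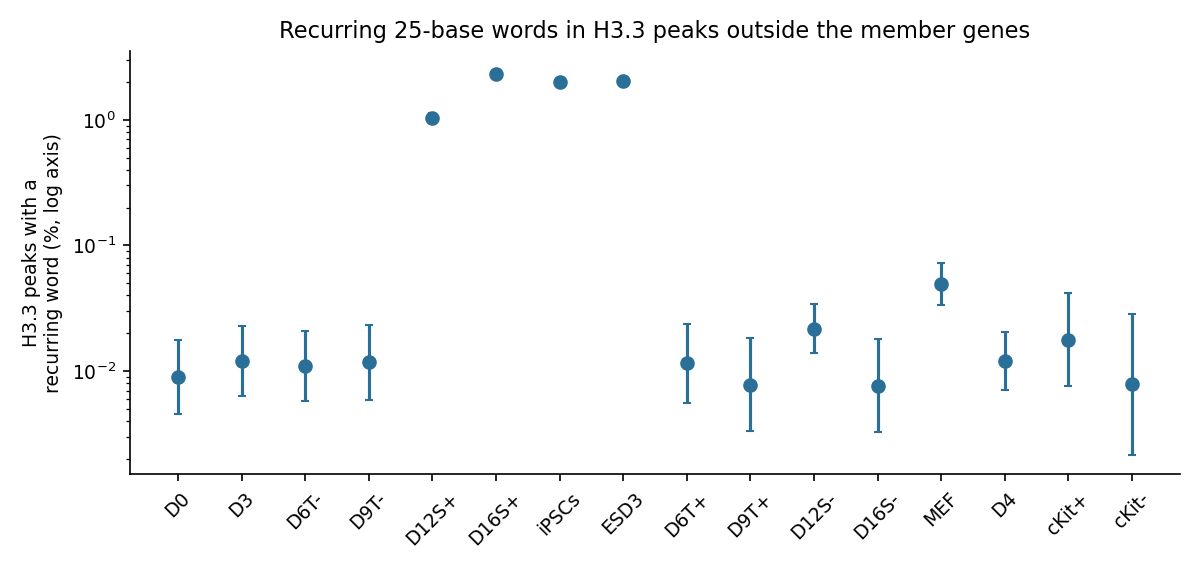
Percentage of H3.3 peaks outside the member genes whose central 500 bases hold at least 1 of the 30 recurring words of 25 bases (points, log axis; error bars, 95% Wilson intervals), in 16 H3.3 libraries. D12S+, D16S+, iPSCs and ESD3 lie between 1.03 and 2.32%, and the other 12 libraries at or below 0.0494%.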

How the data were processed

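The submitters' processing notes name STAR, HOMER and the build mm9, with no versions. The authors removed reads with over 2 mismatches or with more than 1 genomic place, and called peaks in each library against input with findPeaks in histone style. The deposited values read were these: the normalized tag count, a signal that the authors scaled to 10 M tags; the fold over input, a ratio computed by the authors (lowest 2 for H3.3 and 4 for the other marks); and the p-value against input, which the authors computed and which was not used further. Of 46 samples, the 16 H3.3, 7 H3K4me3 and 7 H3K36me3 peak lists were used, and the inputs were not analysed here. Depth was 18.7 to 41.2 M tags in the reprogramming H3.3 libraries, with no replicates.

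Genes were the protein-coding entries of GENCODE vM1 on mm9. All values were computed with Python 3.11.15, numpy and pandas. Intervals are 95% Wilson intervals, which cover counting error only. No test was made, as each group was 1 library. RefSeq symbols were matched for 86 members directly and 22 through a synonym. Sequence came from the mm9 reference. The rule was tested on simulated peaks.

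Members and gene lists were chosen with earlier results of these data known. Genes were named by rule: the highest by the lowest late H3.3 score (12), by ESD3 (6), by H3K4me3 in iPSCs (6), by ESD3 without an unsuccessful fraction (6) and by the sum over unsuccessful fractions (6), those on gene lists, and 3 just inside the rule. Others were chosen after their values were seen. Alternatives were a fold of at least 4, equal peak numbers, any overlapping base, no flanks and 5 kb flanks, and 3 added later that drop members. Some items are not reported here.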

Additional observations from a re-analysis of the deposited data

How the results depend on the processing

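No paired analysis was possible because every group had 1 library and the labels give no replicate numbers. Without replicates, shares are set against the main value's 95% Wilson interval, and the number of members against 1.5 times its main value. Of 72 recomputed main values 55 stayed within these limits and 17 did not, and of 128 single shares 89 did. The number of members was 120, and became 56 when peaks needed a fold of 4 or more, 252 with equal peak numbers and 49 with a score of at least 10 in all 3 late libraries; it was 101 with any overlapping base, 123 without flanks and 121 with 5 kb flanks. Of the 252 and the 56, 77 and 30 were members under the main rule. H3.3 in ESD3 moved to 89.8% for members with a score of at least 10. In D6T+ it moved from 10.0% to 17.9% with a fold of at least 4, 4.95% with any overlapping base, 4.13% with 5 kb flanks and 4.21% without members touched by an early peak. In D9T+ it moved from 11.7% to 6.93%, 4.13% and 5.26% under the last 3 of these settings, and in D16S- from 23.3% to 12.4% with 5 kb flanks. Members bound in no unsuccessful fraction moved from 55.0% to 66.9% with 5 kb flanks and 65.3% without touched members. H3K4me3 in iPSCs moved from 75% to 88.5% with equal peak numbers and 65.3% with 5 kb flanks, and H3K36me3 in iPSCs from 21.7% to 33.3% with equal peak numbers. The cause of these moves was not tested. With 5 kb flanks 78 of the 121 genes were members under the main rule. The 3 settings that drop members were chosen after seeing the data. Depth limits calls to peaks of at least 10 to 18 tags.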
